A study of Mus musculus with 20 samples.

Results

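The stretch of mouse chromosome 9 that surrounds Myd88 was followed with every array probe whose listed position starts within 20 Mb of the Myd88 probe (chromosome 9, 119016408 to 119016467). Control spots and the probes of Myd88 itself and of Itga9 were left out by this rule. It took in 612 of the 41174 probes of the array, for 405 genes, and 426 of them, for 280 genes, were bright enough to be tested. The first probe starts at 99028148, 19.99 Mb below Myd88, and the last at 123827706, 4.811 Mb above it, so that 474 probes lie on the side of lower positions and 138 on the side of higher positions. The genome build of these positions is not given in the sources used here, and they are printed as the files list them.

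RNA came from the whole trachea of C57/Bl6 mice, labelled as 4 months old, in 4 groups of 5 samples, each hybridized to 1 one-colour array. The groups were uninjured wild-type (WT control), uninjured Myd88 knockout (KO control), injured wild-type (WT injury) and injured Myd88 knockout (KO injury). Injured tracheas were collected 3 days after 2% polidocanol, a detergent that strips the surface epithelium. The study describes the Myd88 deletion as global. Per its methods the knockout had been backcrossed for several generations to C57/Bl6JOlaHsd and was bred KO to KO, while the wild-type mice came from a separate colony of that strain, and both sexes were used. Genotype and colony therefore cannot be told apart in any comparison below. Nothing in the sources says which samples shared a litter or cage, so p values measure the spread between these samples.

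Myd88 encodes the adaptor through which most Toll-like receptors and the interleukin-1 receptor family signal to NF-κB. A gene that is targeted in embryonic stem cells of 1 strain and then crossed into another travels with flanking chromosome of the first strain, and that flank shortens with each generation. Neighbouring genes can then carry other alleles as well as the targeted one. An array probe reports both how much of a transcript is present and how well it pairs with the probe, and these cannot be told apart where a gene has 1 probe. The arrays did not read genotype, so whether any donor chromosome was present around Myd88 was not tested. The comparisons ask where along the interval Myd88KO and wild-type tracheas differed, whether they did so in both uninjured and injured samples, and whether different probes of a gene gave the same answer.

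Of the 4 genes with a probe that differed, 1, Fyco1, has an entry in the RefSeq promoter table, and its upstream window is shown because 1 of its 6 probes carries a large difference. It lies at chr9:123851900-123852149 of GRCm38.p6 on the minus strand and covers the 250 bases before the annotated start. The capitals mark 4 adjoining copies of a 30-base unit.
Fyco1 upstream window: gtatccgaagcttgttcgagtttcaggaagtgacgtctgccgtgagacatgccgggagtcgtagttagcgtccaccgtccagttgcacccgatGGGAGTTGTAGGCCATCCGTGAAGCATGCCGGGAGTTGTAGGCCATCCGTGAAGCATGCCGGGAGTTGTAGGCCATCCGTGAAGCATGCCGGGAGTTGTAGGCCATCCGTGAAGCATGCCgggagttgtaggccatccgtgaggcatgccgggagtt
The unit was taken from this window, so a match here was certain. Searched as an exact match on either strand, it was in 1 of 32851 such windows, this one. The count of an exact stretch this long does not measure how common such repeats are. The NF-κB consensus had no match here on either strand, against 5.93% of all windows with 1 or more. Whether any probe of the array reads this window was not tested, and probe sequences are not shown here.

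Values below are log2 intensities relative to the 75th percentile of each array, so that 0 is the level of a fairly bright probe and each step of 1 is a doubling. Differences are Myd88KO minus wild-type on this log2 scale with the standard error (SE) of the limma fit over all 20 arrays, n = 5 per group. A probe was called at a Benjamini-Hochberg adjusted p under 0.01, adjusted over all 26063 tested probes. In these whole tracheas, fewer cells of a type and less RNA per cell cannot be told apart.

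The share of spots well above background was 57.5% to 67.8% over the arrays, with 61.3% to 65.5% in WT control, 59.1% to 67.8% in KO control, 61.7% to 66.3% in WT injury and 57.5% to 67.1% in KO injury. All markers of secretory, basal, ciliated, cartilage, skeletal muscle, adipocyte, thyroid and leukocyte cells were detected, and 0 of them were called in either genotype comparison. The log2 of the summed level of the 3 adipocyte markers was 4.47 to 5.48 in WT control and 5.83 to 6.23 in KO control, without overlap, and 3.81 to 6.10 against 4.49 to 6.30 in the injured groups. The part of that shift in the results below was not tested. The 20 arrays sat on 5 slides, and every group had 1 array on each.

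Myd88, the targeted gene, was read by 1 probe printed on 10 spots. In WT control its level was 2.13, 1.95, 2.28, 1.94 and 2.08, and in KO control 2.00, 1.82, 2.04, 1.86 and 1.60. These uninjured ranges overlap, with a difference of −0.21 (SE 0.14, adjusted p = 0.9996, limma). In WT injury the level was 2.78, 2.67, 2.36, 2.65 and 2.80, and in KO injury 1.54, 2.04, 2.09, 2.09 and 1.68. The injured ranges were apart and the difference was −0.77 (SE 0.14, adjusted p = 0.00824, limma), a call lost in 22 of 30 alternatives, with an adjusted p of up to 0.173. It was lost without any 1 of WT control 1, 2, 4 or 5, KO control 1, 2, 3 or 4, WT injury 1, 2, 4 or 5, or KO injury 1, 3, 4 or 5 (adjusted p = 0.0102 to 0.0341, limma). The probe was well above background on all 20 arrays. Whether it overlaps the deletion is not given in the sources used here, so it does not check the genotype labels.

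Between uninjured groups, 5 of the 426 tested probes (1.17%) were called, against 0.384% of all tested probes. One, for Fbxw27, was higher in Myd88KO, where 0.188% of all tested probes were called higher. That probe was bright enough to be tested through its Myd88KO arrays alone. Its call is therefore a description, and it is included in each count of 5 given here. The other 4, for Limd1 (2 probes), Fyco1 and 0610042G04Rik, were lower in Myd88KO, where 0.196% of all were called lower. Between injured groups the same 5 probes were called, against 0.38% of all tested probes, again with Fbxw27 higher (0.15% of all) and the other 4 lower (0.23% of all). Thus 5 interval probes were called in both comparisons in the same direction, against 69 of all tested probes, or 0.265%. The comparisons share no array, but the fit took 1 estimate of each probe's spread from all 20. Fitted on the 10 arrays of each comparison alone, 4 of the 5 probes were called in each. The 5 calls are among 100 of the whole array in uninjured and 99 in injured samples.

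**Figure D1:**
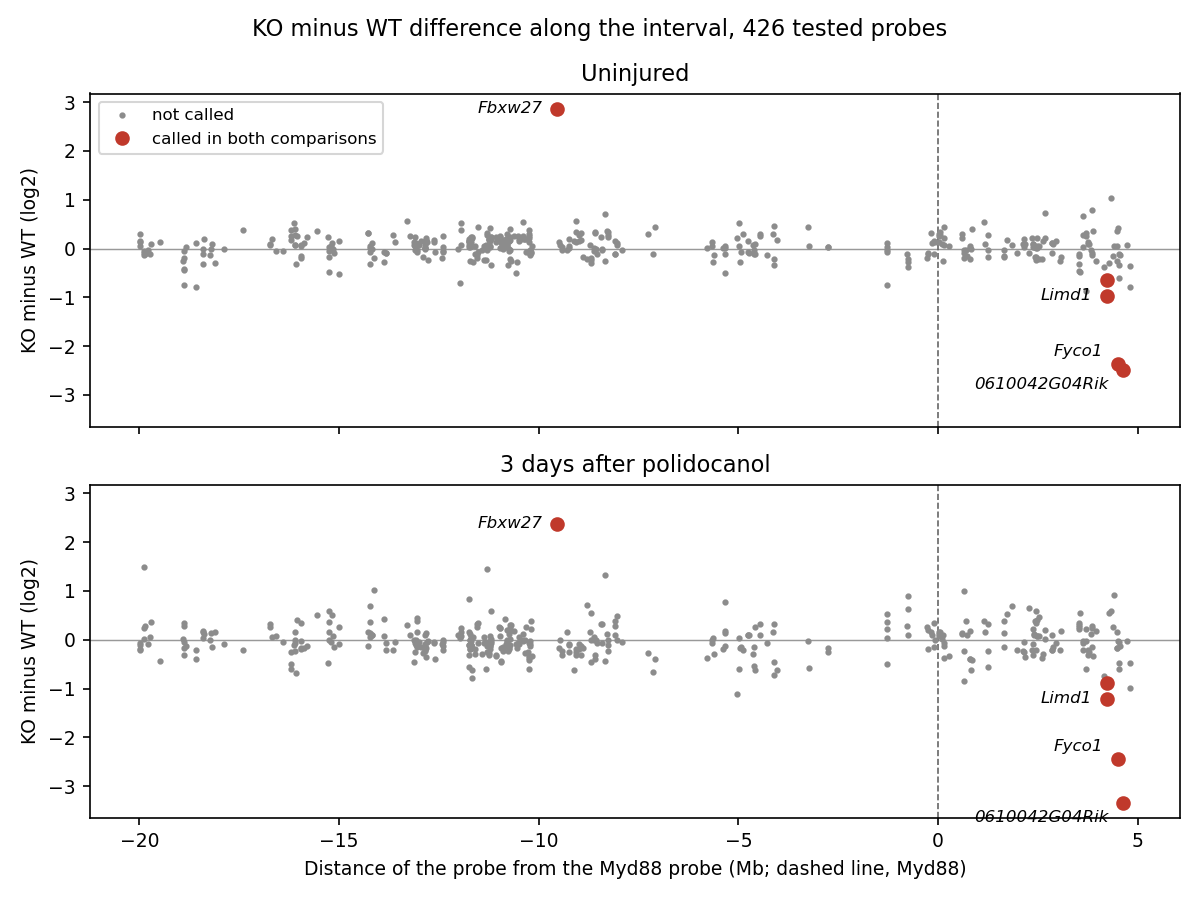
KO minus WT difference (log2, vertical axis) of each of the 426 tested probes against its distance from the Myd88 probe in Mb (horizontal axis), in uninjured (top) and injured (bottom) tracheas. Grey points were not called, and the 5 red points were called in both comparisons: Fbxw27 at 9.55 Mb below Myd88, and Limd1, Fyco1 and 0610042G04Rik at 4.22 to 4.63 Mb above it.

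Among the interval probes, which leave out Itga9 and Myd88, those called were not the nearest to Myd88. Itga9, which encodes an integrin alpha chain, lies close by and has 2 tested probes. Its probe at −0.437 Mb from Myd88 was called higher in Myd88KO in both comparisons, at 3.26 (SE 0.13, adjusted p = 1.19e-11, limma) in uninjured and 2.87 (SE 0.13, adjusted p = 1.20e-10) in injured samples. Its other probe, at −0.436 Mb, is known on the array as 6720458D17Rik and was assigned to Itga9 through an older symbol. That probe gave 0.14 (SE 0.18) and −0.19 (SE 0.18) and was not called. The counts that follow are over the interval probes alone. On the side of lower positions, 0 of 17 tested probes within 2 Mb, 0 of 25 from 2 to 5 Mb, 1 of 58 from 5 to 10 Mb (Fbxw27), 0 of 157 from 10 to 15 Mb and 0 of 63 from 15 to 20 Mb were called. On the side of higher positions, 0 of 34 within 2 Mb and 4 of 72 beyond 2 Mb were called, and no probe lies more than 4.811 Mb away. The probe of Fbxw27 was separated from Myd88 by 99 nearer probes that were not called, those of Limd1 by 86, that of Fyco1 by 94 and that of 0610042G04Rik by 99. Between Fbxw27 and Limd1 lie 13.8 Mb with 185 tested interval probes, none of them called, besides the left-out probes of Itga9 and Myd88. The 4 lower probes start within 0.405 Mb of each other, a stretch with 17 tested probes for 11 genes, 13 of which were not called. On the rest of chromosome 9, 1 of 1051 tested probes was called in uninjured and 0 in injured samples. That probe is for Ankk1 (−2.47, SE 0.43, adjusted p = 0.00465 in uninjured and −1.71, SE 0.43, adjusted p = 0.0796 in injured, limma), named after its value was seen.

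Fbxw27, known on the array as 1700124P09Rik, belongs to a family of F-box and WD40 repeat proteins, which in general hold substrates for ubiquitin ligases, and sits in a run of closely related genes. Its probe (chromosome 9, 109466704 to 109466763) read −5.43, −6.10, −5.55, −5.99 and −5.69 in WT control and −3.17, −3.17, −2.88, −2.36 and −2.83 in KO control. In WT injury it read −5.33, −5.52, −6.09, −6.58 and −5.48, and in KO injury −3.89, −3.70, −3.21, −3.56 and −2.76. All 10 wild-type arrays were thus below all 10 Myd88KO arrays, and the probe was well above background on 0 of the 10 wild-type and on all 10 Myd88KO arrays. Since the wild-type side has only a bound, Fbxw27 signal was at least 3.84-fold higher in KO control (adjusted p = 1.07e-06, limma) and at least 2.97-fold higher in KO injury (adjusted p = 1.14e-05, limma), the bound being the lowest signal that passed as above background on each array. The probe passed the filter on dim probes through its Myd88KO arrays alone, so it had to differ in order to be tested. Its call is therefore a description, and the other 4 called probes were detected in both genotypes. Of 13 interval probes for genes named Fbxw, 2 were tested, and the other one, for Fbxw21, gave 0.05 in uninjured and −0.34 in injured samples, not called. With relatives this similar, which of them the probe reads is uncertain. After normexp background correction the difference fell to 1.05 in uninjured samples (adjusted p = 0.00111, limma), which is smaller than the bound above, and to 0.63 in injured samples (adjusted p = 0.0891), no longer called.

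Limd1 encodes a LIM domain protein that acts as a scaffold in Hippo signalling and in silencing by microRNAs. Both of its probes were tested and both were called lower in Myd88KO in both comparisons. The brighter probe (123236648 to 123236707) read 2.76, 2.44, 2.75, 2.77 and 3.14 in WT control and 1.80, 1.71, 1.94, 1.82 and 1.74 in KO control. The groups did not overlap and differed by −0.97 (SE 0.13, adjusted p = 1.93e-04, limma). In WT injury it read 3.03, 2.98, 2.76, 3.15 and 2.88, and in KO injury 1.57, 1.90, 1.77, 1.82 and 1.67. That difference was −1.21 (SE 0.13, adjusted p = 1.14e-05, limma), so the wild-type signal was 1.96 times that of Myd88KO in uninjured and 2.32 times in injured tracheas.

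The second Limd1 probe (123237558 to 123237617) read 1.75, 1.54, 1.60, 1.65 and 1.60 in WT control and 0.97, 0.99, 1.15, 0.83 and 1.02 in KO control, again without overlap, a difference of −0.64 (SE 0.12, adjusted p = 0.00789, limma). In injured samples it read 1.68, 1.98, 1.84, 2.12 and 1.59 in WT and 0.89, 1.10, 0.97, 0.98 and 0.84 in Myd88KO, a difference of −0.89 (SE 0.12, adjusted p = 2.28e-04, limma). The 2 probes differed by 0.33 in the size of the genotype difference in either comparison, a pair difference that was not called. The uninjured call of the second probe was close to the threshold. With the slide as a block, which paired the uninjured samples, its adjusted p was 0.0118, and over all 30 alternatives it was lost in 19, with an adjusted p of up to 0.0343. The loss followed from leaving out any 1 of the 10 uninjured arrays, WT injury 2 or 3, or KO injury 2, 3 or 4 (adjusted p = 0.0101 to 0.0343, limma). The injured call was lost when only the 10 injured arrays were fitted (adjusted p = 0.0386). The uninjured difference stayed between −0.67 and −0.60, and the injured one between −0.95 and −0.81.

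Fyco1 encodes an adaptor that links late endosomes and autophagosomes to kinesin for transport along microtubules. Its 6 probes are listed over 49.3 kb on the minus strand, and all were tested. One of them (123511019 to 123513053), the only one listed over more than 60 bases, at 2035 bases, read 1.47, 1.21, 0.98, 1.12 and 1.77 in WT control and −0.71, −1.22, −1.29, −1.24 and −0.80 in KO control. In WT injury it read 1.57, 0.71, 0.82, 0.61 and 1.30, and in KO injury −1.57, −1.73, −1.51, −1.89 and −0.52. All 10 wild-type arrays lay above 0 and all 10 Myd88KO arrays below it, and the probe was well above background on every array. The difference was −2.37 (SE 0.25, adjusted p = 9.59e-06, limma) in uninjured and −2.45 (SE 0.25, adjusted p = 6.22e-06, limma) in injured samples, so that wild-type signal was 5.16 and 5.46 times that of Myd88KO.

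The other 5 Fyco1 probes were not called in either comparison. The brightest (123508244 to 123508303) ranged over 1.83 to 2.39 in WT control, 1.88 to 2.30 in KO control, 1.45 to 1.75 in WT injury and 1.38 to 2.49 in KO injury. Its groups overlapped, with differences of 0.05 (SE 0.18) and 0.16 (SE 0.18). Over the remaining 4 probes the differences ran from −0.60 to −0.12 in uninjured and from −0.60 to −0.05 in injured samples, with adjusted p values (limma) no lower than 0.903 and 0.349. On the mean of its 6 probes, Fyco1 was not called, with −0.61 in uninjured (SE 0.19, adjusted p = 0.343, limma on 17793 gene means) and −0.60 in injured samples (SE 0.19, adjusted p = 0.184). Cxcr6, a chemokine receptor gene whose probe is listed on the plus strand between the Fyco1 probes, gave 0.41 (SE 0.27) and −0.04 (SE 0.27), not called.

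**Figure D2:**
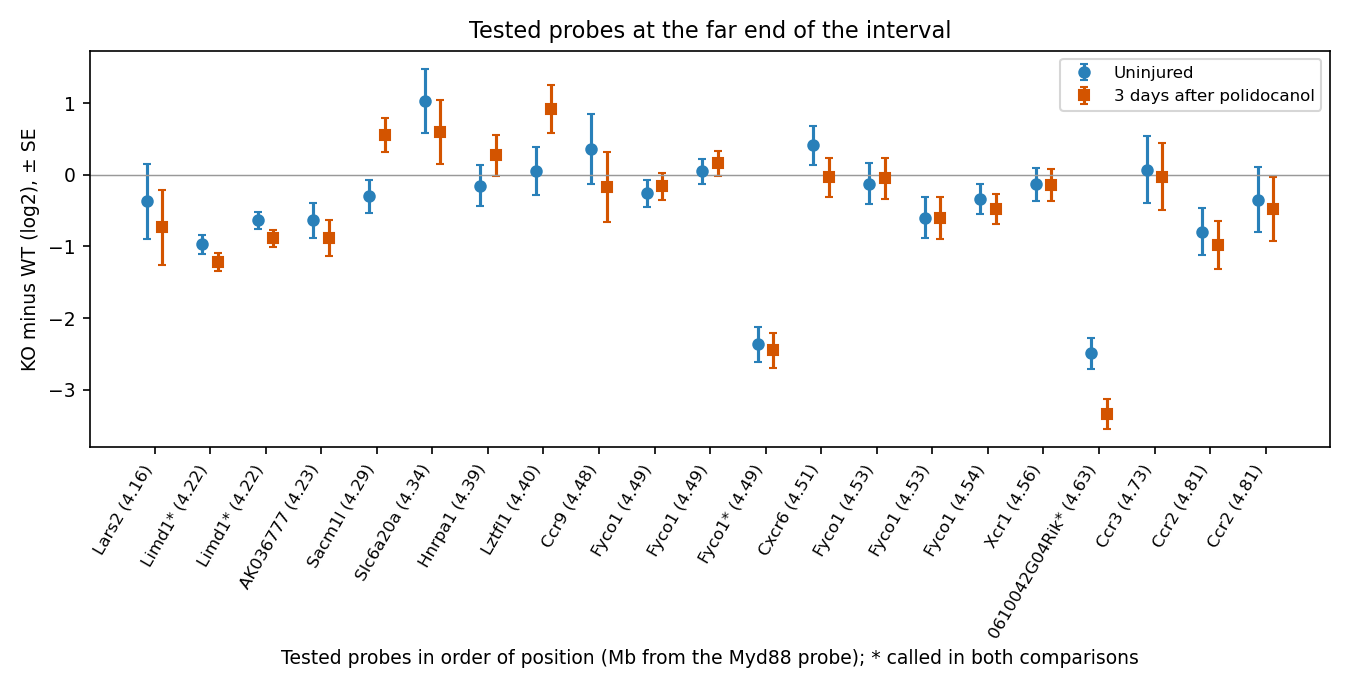
KO minus WT difference (log2, ± SE) of the 21 tested probes that start more than 4.1 Mb above Myd88, in order of position, in uninjured (circles) and injured (squares) tracheas. Asterisks mark the 4 probes called in both comparisons. The Fyco1 probe at 4.49 Mb lies near −2.4 while the other 5 Fyco1 probes lie between −0.60 and 0.16.

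0610042G04Rik is a gene known from a cDNA clone, with no function given in the tables used here. Its only probe (123641948 to 123642007) is listed between those of Xcr1 and Ccr3 among the tested probes. It read −0.75, −1.18, −1.43, −1.63 and −1.27 in WT control and −3.63, −4.41, −3.44, −3.87 and −3.37 in KO control, a difference of −2.49 (SE 0.21, adjusted p = 8.41e-07, limma). In WT injury it read −0.94, −0.88, −0.84, −0.55 and −0.96, and in KO injury −4.49, −3.63, −4.05, −4.11 and −4.58, a difference of −3.34 (SE 0.21, adjusted p = 6.27e-09, limma). All 10 wild-type arrays were above all 10 Myd88KO arrays, by a factor of 5.63 on average in uninjured and 10.1 in injured tracheas. The injured difference minus the uninjured one was −0.85 (SE 0.30), which did not pass adjustment over all tested probes (adjusted p = 0.391, limma). The probe was well above background on 19 of 20 arrays. After normexp background correction the uninjured difference was −1.59.

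**Figure D3:**
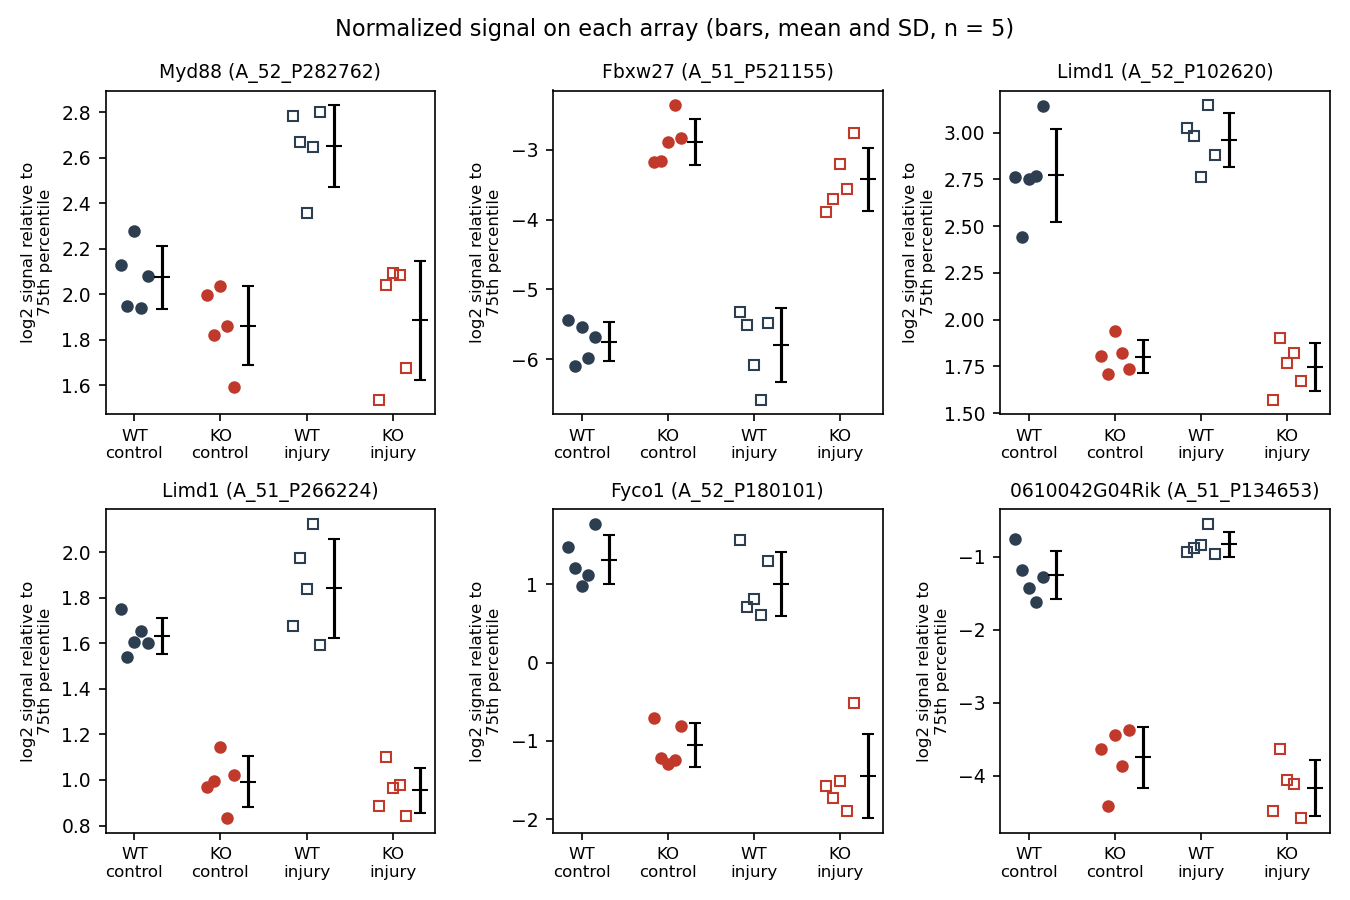
Normalized log2 signal on each array (vertical axes, which differ between panels) for Myd88 and the 5 called probes. Points are arrays, filled for uninjured and open for injured, dark for WT and red for KO, and bars give the mean ± SD (n = 5). WT and KO arrays do not overlap in any panel but uninjured Myd88.

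Within slides, for each of the 5 called probes, all 5 differences between the Myd88KO and the wild-type array of a slide had 1 sign in uninjured and in injured samples. The groups of these probes did not overlap in either comparison, so this sign was fixed in advance and only the sizes are informative. For Fbxw27 these differences are against wild-type signal below background and have no exact size. They ran from −1.41 to −0.74 and from −1.45 to −0.996 for the brighter Limd1 probe, from −0.82 to −0.46 and from −1.15 to −0.75 for the other, from −2.58 to −2.18 and from −3.15 to −1.82 for Fyco1, and from −3.23 to −2.01 and from −3.62 to −2.75 for 0610042G04Rik. Injury itself was not called for any of the 5 in either genotype. In wild-type tracheas injury changed them by −0.31 to 0.42 (lowest adjusted p = 0.216, limma), and in Myd88KO tracheas by −0.54 to −0.04 (lowest adjusted p = 0.243).

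Called or not, 13 of the 426 tested probes had uninjured groups that did not overlap (2.51% of all tested probes did), and 11 had injured groups that did not (1.96% of all). In both comparisons and in the same direction this held for 6 of the 426, against 116 of all 26063 tested probes. The 6 were the 5 called probes and 1 of Stt3b, a catalytic subunit of the oligosaccharyltransferase that adds sugars to proteins in the endoplasmic reticulum. The Stt3b probe, at −4.11 Mb from Myd88, gave a difference of −0.33 in uninjured samples (adjusted p = 0.794, SE 0.14) and of −0.71 in injured samples (adjusted p = 0.0205, SE 0.14, limma). The other tested Stt3b probe gave −0.21 (SE 0.17) and −0.45 (SE 0.17), not called, with groups that overlapped. The first Stt3b probe was called in injured samples with scan day as a block (adjusted p = 0.00537) and without KO injury replicate 2 (adjusted p = 0.00640). At an unadjusted p under 0.05 there were 25 interval probes in uninjured samples (5.87%, against 5.59% of all) and 49 in injured samples (11.5%, against 12.5% of all).

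The change in the genotype difference from uninjured to injured samples was called for 0 of the 426 probes (lowest adjusted p = 0.390, limma), and for 0% of all tested probes. At an unadjusted p under 0.05 there were 36 (8.45%, against 10.4% of all). Of the 426 probes, 174 (40.8%) had the same sign in both comparisons, against 41.4% of all tested probes. The median difference of the interval was 0.06 in uninjured and −0.05 in injured samples, against 0.04 and −0.03 over all tested probes. Without the 5 called probes, the remaining 421 ran from −0.88 to 1.03 in uninjured and from −1.12 to 1.49 in injured samples.

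**Figure D4:**
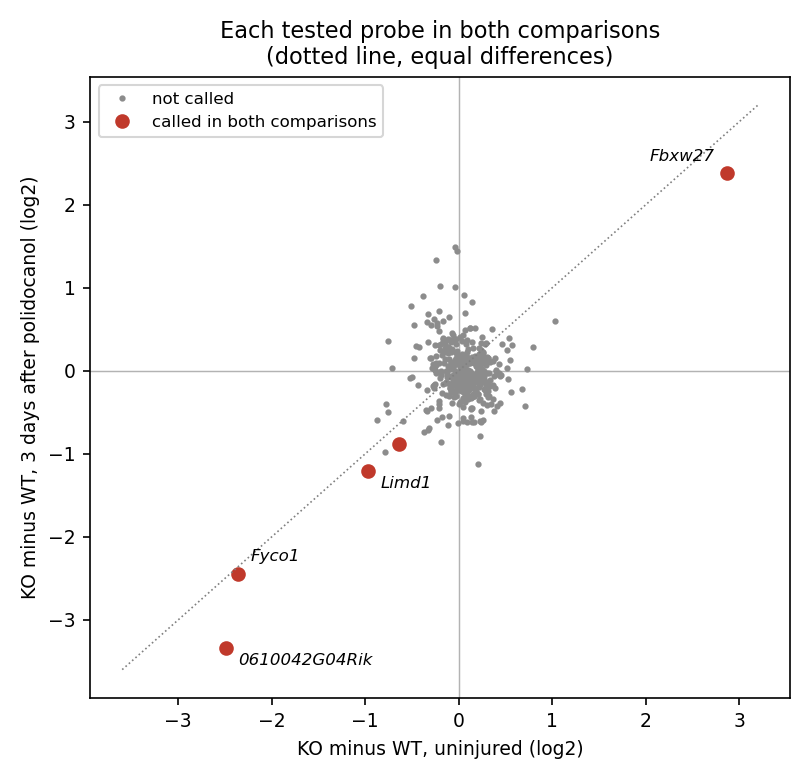
KO minus WT difference of each of the 426 tested probes in injured (vertical axis, log2) against uninjured tracheas (horizontal axis, log2), with the dotted line where both are equal. The 5 red points, called in both comparisons, lie near the line, and 0610042G04Rik lies below it at −2.49 and −3.34.

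Beyond the called probes, the largest values of the interval did not pass the test. In uninjured samples the largest rises after Fbxw27 were Slc6a20a, a proline transporter (1.03, SE 0.45), Clec3b, which encodes tetranectin (0.80, SE 0.40), Gask1a (0.73, SE 0.23) and Rtp3 (0.71, SE 0.22), with adjusted p values (limma) of 0.792, 0.928, 0.304 and 0.308. The Slc6a20a groups did not overlap, and it was called when only the 10 uninjured arrays were fitted (adjusted p = 0.00277). The largest falls after those of Limd1, Fyco1 and 0610042G04Rik were the mitotic kinesin Kif15 (−0.88, SE 0.72) and the chemokine receptor gene Ccr2 (−0.79, SE 0.33), with adjusted p values of 0.9996 and 0.746. In injured samples the largest rises after Fbxw27 were 1600029I14Rik (1.49, SE 0.80), 1700021K14Rik (1.45, SE 0.61), Lrrc2 (1.34, SE 0.40) and the cilia-associated kinase gene Nek11 (1.02, SE 0.80), with adjusted p values of 0.465, 0.321, 0.152 and 0.637. The largest falls were Bcl2a1c (−1.12, SE 0.57), of the antiapoptotic A1 family, and Ccr2 (−0.98, SE 0.33), with adjusted p values of 0.433 and 0.216.

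The nearest neighbours of Myd88 showed no called difference. Of the 5 nearest tested genes on each side, those described here were Oxsr1, a kinase that controls chloride cotransporters, Slc22a13, Acaa1b, Plcd1 and Vill on the side of lower positions, and Acaa1a, Xylb, Acvr2b and Exog on the other. Their probes lie from −0.266 to 0.127 Mb from Myd88. Differences ran from −0.25 for Exog, a mitochondrial nuclease, to 0.34 for Xylb, the xylulose kinase gene, in uninjured samples, and from −0.19 for Plcd1, a phospholipase C, to 0.34 for Oxsr1 in injured samples. Oxsr1 has 3 tested probes, and its others gave −0.01 (SE 0.20) and −0.14 (SE 0.28) in injured samples. Over all these genes the lowest adjusted p (limma) was 0.393. Acaa1a, a peroxisomal thiolase whose 3 probes begin 0.0103 Mb above Myd88, gave 0.14, 0.25 and 0.29 in uninjured and 0.16, 0.12 and 0.07 in injured samples.

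Probes of the same gene were then set against each other. Of 108 interval genes with more than 1 tested probe, all probes had the same sign in 82 (75.9%) in uninjured and 77 (71.3%) in injured samples, against 68.9% and 68.3% of the 5941 such genes of the whole array. The range of differences over a gene's probes had a median of 0.12 and 0.15, against 0.13 and 0.19 for the whole array. It exceeded 1 for 1 of the 108 interval genes, Fyco1, at 2.41 in uninjured and 2.61 in injured samples. Over the whole array it did so for 78 of the 5941 such genes in uninjured and 132 in injured samples. Itga9, left out of the interval counts, had 2 probes that were further apart than those of Fyco1. They gave 3.26 and 0.14 in uninjured and 2.87 and −0.19 in injured samples, the second being the probe assigned through an older symbol. Limd1 was the interval gene with several probes in which all were called, and Fyco1 the one in which some were. Of the 5941 such genes of the whole array, all probes were called in 6 in uninjured and 8 in injured samples. Some but not all were called in 39 and 38.

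**Figure D5:**
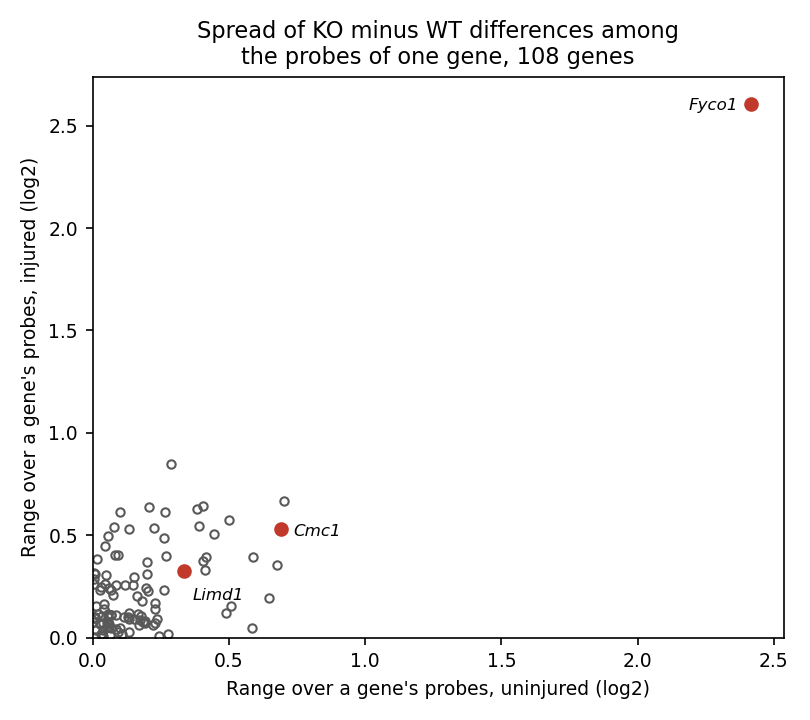
Range of the KO minus WT differences over the tested probes of 1 gene in injured (vertical axis, log2) against uninjured tracheas (horizontal axis, log2), for the 108 interval genes with more than 1 tested probe. Each circle is a gene. Fyco1 stands apart at 2.41 and 2.61, and Cmc1 and Limd1 are marked for comparison.

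When each further probe was tested against the brightest probe of its gene, 2 of 146 interval pairs were called in uninjured samples (0.56% of 8214 pairs of the whole array were) and 1 in injured samples (0.523% of all). The Fyco1 probe described above differed from the brightest Fyco1 probe by −2.41 (SE 0.19, adjusted p = 2.39e-07, limma on pairs) in uninjured and −2.61 (SE 0.19, adjusted p = 8.93e-08) in injured samples. With the slide as a block, 3 pairs were called in each comparison, 2 of Fyco1 and that of Cmc1. The added pair, of the Fyco1 probe at 123507817 to 123507840, differed by −0.31 (SE 0.06, adjusted p = 0.00988, limma on pairs) in uninjured and −0.32 (SE 0.06, adjusted p = 0.00709) in injured samples. In injured samples the Cmc1 pair was also called without KO control 3 and without WT injury 5, which gave 2 called pairs.

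The other called pair was that of Cmc1, which encodes a chaperone for the assembly of cytochrome oxidase and lies at −1.27 Mb from Myd88. Its dimmer probe (117746618 to 117746677) read −0.88, −0.81, −1.51, −1.28 and −1.14 in WT control and −1.48, −2.19, −2.12, −2.05 and −1.55 in KO control, a difference of −0.75 (SE 0.22, adjusted p = 0.247). Its brighter probe gave −0.06 (SE 0.26). The groups overlapped on both probes and neither was called, while the difference between the probes was −0.69 (SE 0.10, adjusted p = 5.43e-04, limma on pairs) in uninjured samples. In injured samples it was −0.53 (SE 0.10, adjusted p = 0.01001), just over the threshold, and 0.00238 with the slide as a block.

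Lztfl1, which restrains the traffic of the BBSome into cilia, lies 4.39 to 4.41 Mb above Myd88 between Limd1 and Fyco1 and has 4 probes, of which 1 was tested. It gave 0.06 (SE 0.33) and 0.92 (SE 0.33, adjusted p = 0.246, limma), not called. Another 2 were well above background on at most 2 of 20 arrays. With no filter on dim probes they were called in uninjured samples, at −2.25 (SE 0.28, adjusted p = 1.53e-04, limma) for the first and −2.31 (SE 0.36, adjusted p = 0.00175) for the second, and were not called in injured samples. The first read −5.03 to −4.29 in WT control and −7.38 to −6.53 in KO control.

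Of the 186 interval probes that were not tested, 106 were well above background on no array. None was well above background on all 5 arrays of 1 genotype and on none of the other, in uninjured or in injured samples. Among tested probes, 1 of Rtp3 was well above background on 4 arrays of KO control and 0 of WT control, a bound of at least 1.49-fold (adjusted p = 0.308, limma).

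Groups of genes with related roles were counted next, and in none of the 7 groups was any probe called in either comparison. None of the 4 genes with a called probe is on these lists, so this holds for other genes only. The interval holds genes of chemokine receptors, which guide leukocytes. Of the 13 listed, 12 were found on the array and 8 tested (10 probes). These probes are spread from −8.26 Mb (Ccrl2) to 4.81 Mb (Ccr2) from Myd88. Their median difference was −0.03 in uninjured and −0.15 in injured samples, against 0.04 and −0.03 over all tested probes. The lowest p belonged to Ccr2, the receptor of inflammatory monocytes, with the values above, followed by the scavenging receptor gene Ackr2 (−0.22, SE 0.24, and −0.37, SE 0.24), Cxcr6 and Ccrl2 (0.34, SE 0.23, and −0.11, SE 0.23). The other Ccr2 probe gave −0.35 (SE 0.45) and −0.48 (SE 0.45). Ccr1, Ccr4, Ccr8 and Ccr1l1 were not tested.

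Of 5 genes of myeloid granules and nucleic acid defence, 3 were tested (4 probes), with medians of 0.23 and −0.08. Trex1, a cytosolic DNA exonuclease, gave 0.22 (SE 0.20) and −0.60 (SE 0.20, adjusted p = 0.213, limma), and Ltf, which encodes lactoferrin, gave 0.36 (SE 0.18) and 0.12 (SE 0.18). Tlr9, a receptor for DNA that signals through Myd88, gave 0.09 (SE 0.16) and −0.16 (SE 0.16). Of 18 genes listed as neighbours of Myd88, 15 were tested (26 probes), with medians of 0.11 and 0.11 and 5 of the 26 at an unadjusted p under 0.05 in injured samples, where 12.5% of all tested probes were. The lowest p there belonged to the Golgi tether Golga4 (0.90, SE 0.30, adjusted p = 0.212), whose 3 probes gave 0.28 to 0.90 in injured and −0.38 to −0.12 in uninjured samples.

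Of 7 striated muscle genes, 6 were tested (8 probes, medians 0.02 and 0.03), and Lrrc2 had the lowest p, with Xirp1 (−0.03, SE 0.35, and 0.38, SE 0.35) and Hhatl (0.23, SE 0.29, and 0.09, SE 0.29) among the others. Of 9 matrix and basement membrane genes, 8 were tested (11 probes, medians 0.14 and −0.19). Crtap, which takes part in collagen prolyl hydroxylation, gave 0.05 (SE 0.18) and −0.61 (SE 0.18, adjusted p = 0.144), and Dag1, which encodes dystroglycan, gave 0.23 (SE 0.20) and −0.34 (SE 0.20).

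All 10 epithelial growth and signalling genes were tested (16 probes, medians 0.00 and −0.09). Tgfbr2, a receptor for TGF-β, gave 0.44 (SE 0.14, adjusted p = 0.362) in uninjured samples, where the groups did not overlap, and −0.03 (SE 0.14) in injured samples on 1 probe, and 0.04 (SE 0.31) and −0.57 (SE 0.31) on the other. The G protein subunit Gnai2 gave 0.24 (SE 0.21) and −0.62 (SE 0.21), and the small GTPase RhoA 0.04 (SE 0.15) and −0.44 (SE 0.15). The other RhoA probe gave 0.13 (SE 0.27) and −0.18 (SE 0.27). All 8 genes listed for the ubiquitin pathway were tested (15 probes, medians 0.04 and −0.03), a list without Fbxw27 and its relatives. The lowest p belonged to the deubiquitinase gene Usp19 (0.30, SE 0.13, adjusted p = 0.825, limma, and −0.03, SE 0.13). The other Usp19 probe gave 0.04 (SE 0.31) and 0.20 (SE 0.31).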

How the data were processed

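Each of the 20 samples was hybridized to 1 one-colour Agilent whole mouse genome array. The authors deposited the Feature Extraction 9.5.1.1 output, whose background-subtracted spot intensity was used here, and a value table of the same intensity, rounded. Control spots (1639 of 45018) and 1960 values marked as outliers were left out, spots of a probe were averaged, and the log2 intensity was set relative to the 75th percentile of each array. Probes well above background on at least 10 of 20 arrays were tested (26063 of 41174). The number of arrays limits the precision. Within-group correlations were 0.923 to 0.990.

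All arrays were fitted together in R 4.3.3 with limma 3.58.1, with Benjamini-Hochberg adjustment and a threshold of 0.01. The fits were tested on simulated data. The one-way parametric test of the study's methods was run as an alternative. Pairs were each further probe minus the brightest probe of the gene. Genes were named through a RefSeq table (GRCm38.p6, names only), which named 506 of the 612 interval probes, and the other probes keep the name on the array. A further 19 probes on unplaced chromosome 9 sequence were left out. Alternatives were other background corrections, normalizations and filters, slide or scan day as a block, array weights, fewer arrays and other thresholds. Slides carry the replicate numbers: same-slide uninjured samples deviated together (r = 0.252 to 0.478 over probes), while injured ones did so on some slides only (−0.218 to 0.334).

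Genes named are all with a called probe or pair, the 5 nearest to Myd88 on each side (1 is not reported here), Fyco1, Myd88, the 5 largest rises and falls in each comparison, and up to 4 of each gene group. Stt3b, Lztfl1, Fbxw21, Ankk1 and the further probes of Tgfbr2, Oxsr1, Ccr2, RhoA and Usp19 were added after their values were seen. The members and lists were chosen with earlier results of these data known.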

Additional observations from a re-analysis of the deposited data

Results flagged for a closer look

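Among 13 probes examined in 4 groups each (52 groups of 5), 3 groups held a sample whose gap to the next was over 0.71 of the group's range, where chance gives about 1 in 20 groups. On the called Fyco1 probe, KO injury 5 read −0.52 and the next sample −1.51, still below every wild-type array. On the dim Fyco1 probe at 123549108 to 123549167, KO control 5 read −3.18 and the next sample −4.28. On the last Fyco1 probe (123557089 to 123557148), KO injury 3 read −0.45 and the next sample −1.13.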

How the results depend on the processing

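The 5 calls in uninjured and 5 in injured samples were recomputed under 35 alternatives each. Requiring detection on all 20 arrays left out Fbxw27 and 0610042G04Rik and gave 3 calls in each comparison and in both. With 1 value per gene there were 3 genes in each and in both, Fyco1 being lost. Normexp background correction gave 3 probes called in both, the second Limd1 probe being lost in uninjured and Fbxw27 in injured samples. The methods' one-way test gave 14 and 12 interval probes at an unadjusted p under 0.01, and 2 in injured samples after adjustment. The share of all tested probes under that unadjusted threshold is not given here, so the counts of 14 and 12 cannot be set against it. Leaving out each array gave 4 to 5 in uninjured, 5 to 6 in injured samples and 4 to 5 in both. The uninjured loss was always the second Limd1 probe (without any 1 of the 10 uninjured arrays, WT injury 2 or 3, or KO injury 2, 3 or 4), and the gain was Stt3b. For pairs, normexp gave 1 in uninjured samples and no filter on dim probes 4. In injured samples quantile normalization, the value table, detection on all 20 arrays and scan day as a block gave 2 each, the replicate block and a threshold of 0.05 gave 3 each, and leaving out arrays 1 to 2. The replicate block took the uninjured count of probes from 5 to 4 and changed no other call of the 5 probes. The median difference stayed between 0.02 and 0.08 in uninjured and −0.08 and −0.01 in injured samples. No called probe or pair reversed its sign. The difference between comparisons could not be computed on 10 arrays alone. Dim probes limit Fbxw27 and Lztfl1.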
